A study of Mus musculus with 6 samples.

Results

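The genes of heme synthesis and heme breakdown were examined in mouse liver after knockdown of Rnf10, which encodes a RING-type E3 ubiquitin ligase. They were taken as a fixed list of 9 enzymes, Alas1, Alad, Uros, Urod, Cpox, Ppox and Fech for synthesis and Hmox1 and Blvrb for breakdown, out of 55487 genes in the count table. All 9 passed the filter on low counts, as did 14046 genes in all. RNA-seq was performed on 1 library per mouse from male wild-type C57BL/6J mice, of which 3 received GalNAc-siNC and 3 received GalNAc-siRnf10, an siRNA against Rnf10 on an N-acetylgalactosamine ligand that hepatocytes take up through the asialoglycoprotein receptor. In GalNAc-siNC that ligand is joined to a control siRNA. All 6 mice ate a normal chow diet, were injected subcutaneously and were sampled at 17 weeks of age. The ligand directs the siRNA to hepatocytes, whereas the RNA was taken from whole liver.

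Heme is built from glycine and succinyl-CoA by a chain of enzymes that starts in the mitochondrion, runs through the cytosol and ends in the mitochondrion, where iron is inserted into the porphyrin ring. The liver is a main site of heme synthesis outside the bone marrow because its cytochromes P450 need heme, and the first enzyme, encoded by Alas1 in liver, sets the pace and is held down by heme itself. Heme oxygenase opens the ring, releasing iron and biliverdin, and biliverdin reductases reduce biliverdin to bilirubin.

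The library totals were between 26854377 and 33058645 counts, so that 3 counts corresponded to at most 1.12e-05% of a library, a limit that covers counting error only. Between libraries of 1 group the chi-square per gene was 4.70 to 30.8, which is above sampling noise. The 2 largest values both involved GalNAc-siNC mouse 1, which had the lowest count of its group in 7 of the 9 heme genes, so results are given with and without it where it matters. Rnf10 had normalized counts of 3869, 4536 and 4040 with GalNAc-siNC and of 1738, 1821 and 1793 with GalNAc-siRnf10, so its log2 fold change was -1.22 with a standard error of 0.0715 (adjusted p = 3.29e-09 by edgeR).

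Of the 9 heme genes, 2 rose with GalNAc-siRnf10 and none fell. A gene was called where the quasi-likelihood test of edgeR, adjusted over all tested genes by Benjamini and Hochberg's method, gave an adjusted p under 0.05. The genes that rose were Alas1, the rate-limiting enzyme at the start of the pathway, and Blvrb, the biliverdin IX beta reductase. Across all tested genes 14.0% passed this threshold in either direction, 6.71% being higher and 7.28% lower, against 22.2% of the 9. Alas1, Alad, Urod, Cpox, Fech and Blvrb were among the tested genes whose normalized count averaged 1000 or more, of which 25.7% were called. DESeq2 also called 2 of the 9, against 1912 of all 14046 tested genes. In the edgeR test 4 of the 9 had an unadjusted p under 0.05, against 3754 of all tested genes. The median log2 fold change of the 9 was 0.03, beside 0.0022 over all tested genes.

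Promoters of the genes that rose are shown so that a reader can see what their start sites share and where they differ. Matches to known motifs are descriptions of the letters and not binding sites. The windows run from 250 bases before to 50 bases after a RefSeq transcription start on GRCm38.p6, read in the direction of the gene. For Alas1 the window is chr9:106247681-106247980 on the minus strand, and for Blvrb it is chr7:27447728-27448027 on the plus strand. Capitals mark the only match to any motif searched, the core of the NRF1 motif, a palindrome named for a regulator of respiratory genes. The Blvrb window held no match.

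Alas1: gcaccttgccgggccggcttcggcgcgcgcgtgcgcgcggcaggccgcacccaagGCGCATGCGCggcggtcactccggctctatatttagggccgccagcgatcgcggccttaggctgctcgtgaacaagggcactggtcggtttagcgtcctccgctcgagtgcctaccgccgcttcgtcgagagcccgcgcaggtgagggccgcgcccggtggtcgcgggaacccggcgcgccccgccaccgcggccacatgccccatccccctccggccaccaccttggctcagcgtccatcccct

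Blvrb: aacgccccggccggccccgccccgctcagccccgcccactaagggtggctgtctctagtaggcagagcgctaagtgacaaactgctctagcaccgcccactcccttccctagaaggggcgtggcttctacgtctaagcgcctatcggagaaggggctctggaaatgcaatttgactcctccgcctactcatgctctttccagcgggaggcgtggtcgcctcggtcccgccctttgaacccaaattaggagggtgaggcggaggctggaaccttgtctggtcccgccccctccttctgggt

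RefSeq gave 11 windows for 7 of the 9 genes. On either strand, the NRF1 core was found in 0.971% of the 32851 promoter windows, and in 2 windows of the heme genes, which are overlapping windows of Alas1 that hold the same site. The E-box CACGTG, the sequence bound by the clock activators, was in 7.15% of all windows and in 4 windows of the heme genes, both windows of Alad and 1 window each of Urod and Uros. CCAAT was in 37.4% of all windows and in 4 of the 11, and AGATAA in 11.2% and in 1, that of Cpox. The antioxidant response element TGACNNNGC (12.4% of all windows), the ROR half-site TAGGTCA (2.61%) and TATAAA (13.6%) were in none of the 11. Of Fech and Hmox1 no window was read.

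Alas1 (ENSMUSG00000032786, minus strand of chromosome 9 from 106233455 to 106248654) encodes the ALA synthase of liver and most other tissues. Its normalized counts were 16641, 18365 and 17071 in the mice treated with GalNAc-siNC and 29191, 29097 and 29325 in those treated with GalNAc-siRnf10. Every GalNAc-siRnf10 mouse was above every GalNAc-siNC mouse, and the distance between the groups was many times the spread within either. The mean was 17359 ± 897 in controls and 29204 ± 114 after knockdown (SD, 3 mice each), a rise of 1.68-fold (95% interval 1.56 to 1.82), or 0.75 on the log2 scale with a standard error of 0.0536 (adjusted p = 3.41e-08, edgeR). The exact two-sided permutation test gave p = 0.1, the smallest that 3 mice against 3 allow. Omitting any single mouse gave log2 fold changes of Alas1 from 0.72 to 0.79, and over all alternatives its adjusted p lay between 1.32e-35 and 6.36e-06. The lowest came from edgeR with no filter on low counts, where the standard error was 0.0577, no smaller than in the main fit. The coefficient of variation of Alas1 was 5.17% with GalNAc-siNC and 0.391% with GalNAc-siRnf10, where counting alone gives 0.598%.

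**Figure D1:**
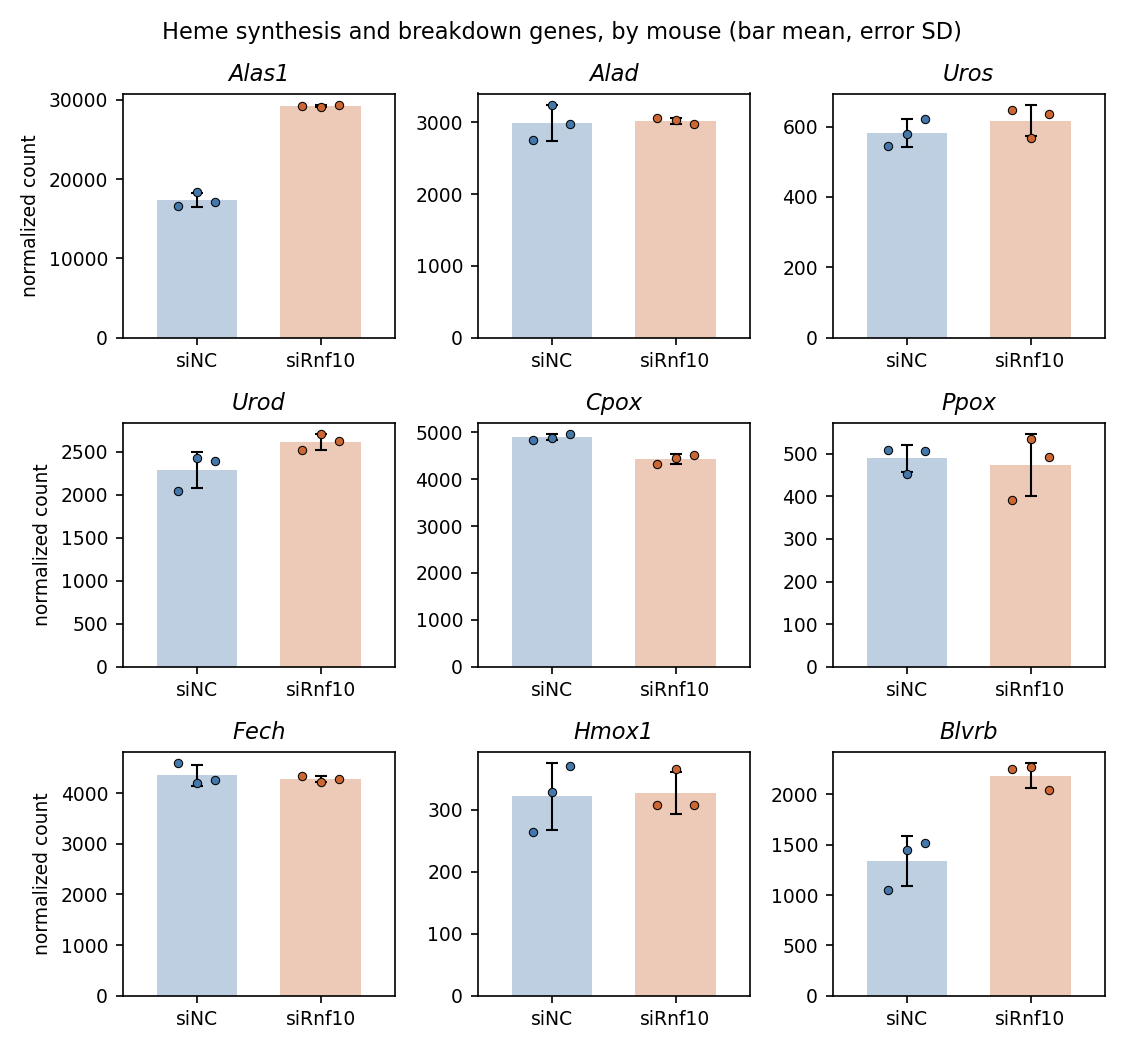
Normalized count (vertical axis, from 0) of each of the 9 heme genes in mice treated with GalNAc-siNC (blue) and GalNAc-siRnf10 (orange). Points are mice, bars are means and error bars are the SD of 3 mice. In Alas1 and Blvrb all GalNAc-siRnf10 mice lie above all GalNAc-siNC mice, while in Alad, Uros, Ppox, Fech and Hmox1 the groups overlap.

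The cytosolic enzymes of the list that come after Alas1 did not pass the threshold. Alad (ENSMUSG00000028393, chromosome 4), which joins a pair of ALA molecules into porphobilinogen, had 2747, 3240 and 2981 normalized counts with GalNAc-siNC and 3058, 3028 and 2973 with GalNAc-siRnf10. The GalNAc-siRnf10 values lay inside the range of the GalNAc-siNC values, and the log2 fold change was 0.015 (95% interval -0.13 to 0.16, adjusted p = 0.919, edgeR). A change of Alad as large as that of Alas1 lies outside this interval.

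Uros (ENSMUSG00000030979, chromosome 7) closes the porphyrin ring to uroporphyrinogen III. Its normalized counts were 545, 578 and 622 with GalNAc-siNC and 648, 567 and 637 with GalNAc-siRnf10. The groups overlapped, with a log2 fold change of 0.085 (95% interval -0.12 to 0.29, adjusted p = 0.624, edgeR).

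Urod (ENSMUSG00000028684, chromosome 4) removes carboxyl groups from the ring to give coproporphyrinogen. It had 2045, 2423 and 2384 normalized counts with GalNAc-siNC and 2515, 2698 and 2618 with GalNAc-siRnf10. The groups did not overlap, yet the gap between the highest control and the lowest treated mouse was smaller than the spread among controls. The log2 fold change was 0.19 (95% interval 0.036 to 0.35, unadjusted p = 0.0190, adjusted p = 0.0986, edgeR), which misses the threshold after adjustment. Without GalNAc-siNC mouse 1 it was 0.12 (adjusted p = 0.162, edgeR), and over all alternatives the adjusted p of Urod lay between 0.0560 and 0.323.

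The last steps lie in the mitochondrion. Cpox (ENSMUSG00000022742, chromosome 16), the coproporphyrinogen oxidase, was the most even of the 9 among controls, with 4844, 4880 and 4965 normalized counts, and had 4318, 4446 and 4525 with GalNAc-siRnf10. Every GalNAc-siRnf10 mouse was below every GalNAc-siNC mouse. The log2 fold change was -0.14 (95% interval -0.27 to -0.022, adjusted p = 0.115, edgeR). Without GalNAc-siNC mouse 1 it was -0.15 and passed the threshold (adjusted p = 0.0247, edgeR), so that the number of heme genes called was then 3.

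Ppox (ENSMUSG00000062729, chromosome 1), which oxidizes protoporphyrinogen, had 509, 452 and 507 normalized counts with GalNAc-siNC and 392, 534 and 493 with GalNAc-siRnf10. The treated mice spanned the control range on both sides, and the log2 fold change was -0.046 (95% interval -0.29 to 0.20, adjusted p = 0.842, edgeR). The value is uncertain, because 17.5% of the Ppox gene model is shared with B4galt3 on the opposite strand, which had 144 to 216 counts per library, and whether the counting used the strand is not given in the sources used here.

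Fech (ENSMUSG00000024588, chromosome 18), the ferrochelatase that inserts iron into the ring, had 4595, 4195 and 4268 normalized counts with GalNAc-siNC and 4343, 4224 and 4272 with GalNAc-siRnf10. All treated values lay within the control range. The log2 fold change was -0.025 (95% interval -0.15 to 0.10, adjusted p = 0.842, edgeR), so the pathway's last step had an interval that excludes the rise seen at its first.

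Hmox1 (ENSMUSG00000005413, chromosome 8), the inducible heme oxygenase, is strong in macrophages that clear red cells and rises in hepatocytes under heme or oxidative load. Its normalized counts were 265, 329 and 372 with GalNAc-siNC and 309, 366 and 308 with GalNAc-siRnf10. The groups overlapped, with a log2 fold change of 0.030 (95% interval -0.25 to 0.31, adjusted p = 0.914, edgeR), and Hmox1 had the widest interval of the 9 together with Blvrb. Without GalNAc-siNC mouse 1 the value was -0.096.

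Blvrb (ENSMUSG00000040466, plus strand of chromosome 7 from 27447978 to 27466144) encodes the biliverdin IX beta reductase, which also reduces flavins. It had 1050, 1445 and 1519 normalized counts with GalNAc-siNC and 2248, 2270 and 2047 with GalNAc-siRnf10. All treated mice were above all controls, and GalNAc-siNC mouse 1 was well below the other controls. The mean was 1338 ± 252 in controls and 2188 ± 123 after knockdown (SD, 3 mice each), a rise of 1.64-fold (95% interval 1.35 to 1.99), or 0.71 on the log2 scale with a standard error of 0.125 (adjusted p = 0.00438, edgeR). Without GalNAc-siNC mouse 1 the log2 fold change was 0.56 (adjusted p = 9.56e-09, edgeR), and omitting any other mouse gave 0.68 to 0.81. Its adjusted p over all alternatives lay between 1.00e-16 and 0.0396. The first came from edgeR with no filter on low counts and the last from edgeR without GalNAc-siNC mouse 2. No other gene of the table shares exon bases with Blvrb.

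**Figure D2:**
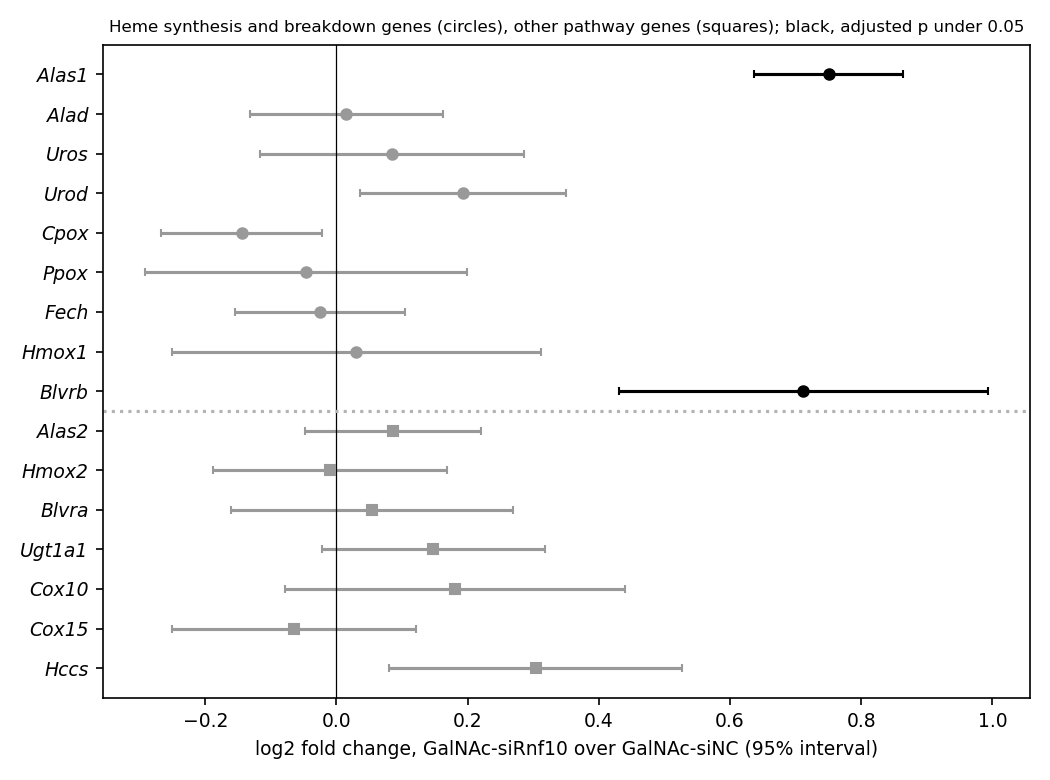
Log2 fold change of GalNAc-siRnf10 over GalNAc-siNC (horizontal axis) with its 95% interval for the 9 heme genes (circles) and 7 other genes of the pathway (squares), black where the adjusted p was under 0.05. Alas1 (0.75) and Blvrb (0.71) stand to the right, and of the other intervals only those of Urod, Cpox and Hccs leave out 0.

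In 4 of the 9 heme genes (44.4%) the groups did not overlap, against 32.8% of all tested genes. These were Alas1, Blvrb, Urod and Cpox, with Cpox lower and the others higher. The coefficient of variation was larger with GalNAc-siNC than with GalNAc-siRnf10 in 6 of the 9. In Alas1, Alad and Fech the GalNAc-siRnf10 mice differed by no more than counting alone gives.

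To compare the enzymes with each other, normalized counts were divided by the length of the gene model. Per kilobase, the order of the levels with GalNAc-siNC was Alas1, Alad, Urod, Cpox, Blvrb, Fech, Hmox1, Uros and Ppox. The level of Alas1 per kilobase was 2812 ± 145 and that of Ppox 108 ± 7.21 (SD, n = 3 mice). The values of Hmox1 and Uros overlapped between mice, and no other neighbours in this order did. With GalNAc-siRnf10 the order differed in 1 exchange, Blvrb (787 ± 44.2) standing above Cpox (665 ± 15.7), and Hmox1 and Uros again overlapped. Gene models hold all annotated transcripts, so a long one such as that of Fech (13838 bases) lowers its level.

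Alas1 made up 42.9%, 42.9% and 41.8% of the summed level per kilobase of the 7 synthesis genes in the GalNAc-siNC mice and 55.2%, 54.7% and 55.1% in the GalNAc-siRnf10 mice. The summed level per kilobase of the other 6 synthesis genes was 3582, 3964 and 3854 with GalNAc-siNC and 3835, 3910 and 3875 with GalNAc-siRnf10. The share of Alas1 separated the groups, which restates the rise of Alas1 and is not a further result. The sum of the enzymes after it overlapped. The ratio of Blvrb to Hmox1 per kilobase was 2.50, 2.76 and 2.57 with GalNAc-siNC and 4.59, 3.90 and 4.19 with GalNAc-siRnf10. It likewise restates the rise of Blvrb.

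**Figure D3:**
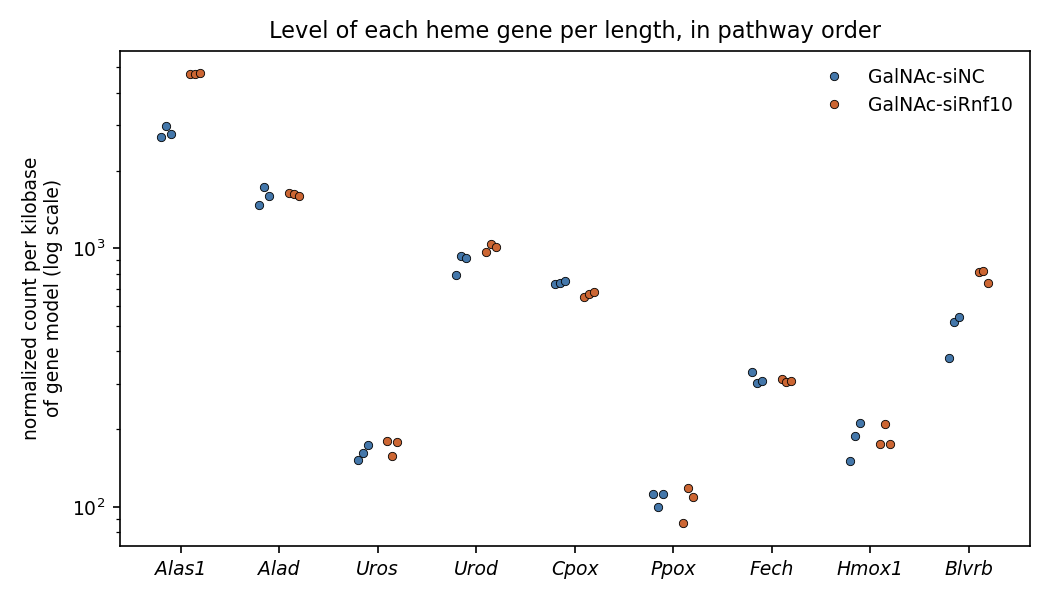
Normalized count per kilobase of gene model (vertical axis, log scale) of the 9 heme genes in the order of the pathway, with 1 point per mouse for GalNAc-siNC (blue) and GalNAc-siRnf10 (orange). Alas1 is the highest in both groups and Ppox the lowest.

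Other genes of the pathway were looked up in a list, of which 7 are given here. None of the 7 was called by edgeR, DESeq2 or limma voom, whereas edgeR called 14.0% of all tested genes. In the edgeR test 1 of the 7 had an unadjusted p under 0.05, against 3754 of all 14046 tested genes. A list of 7 genes is too short for these counts to show that it was spared. Alas2, the ALA synthase of red cell precursors, had 4163, 4097 and 3766 with GalNAc-siNC and 4407, 4160 and 4198 with GalNAc-siRnf10 (log2 fold change 0.086, adjusted p = 0.421, edgeR), so no change was detected in the erythroid paralog of Alas1. The difference between the changes of these paralogs was not tested. Alas2 shares 12.9% of its gene model with Apex2 on the opposite strand.

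Hmox2, the constitutive heme oxygenase, had a log2 fold change of -0.0096 and Blvra, the reductase of biliverdin IX alpha, one of 0.054, both at an adjusted p above 0.7 in the edgeR test. Ugt1a1, which conjugates bilirubin for bile, stood at 0.15 (adjusted p = 0.254, edgeR). Of Hmox2, 40.2% of the gene model is shared with Cdip1 on the opposite strand, and of Ugt1a1 59.0% is shared with the other genes of the Ugt1a cluster on its own strand, so both values are uncertain. Of the genes that build heme a or attach heme to cytochromes c, Cox10 stood at 0.18, Cox15 at -0.065 and Hccs at 0.30. Hccs, whose groups did not overlap, had an adjusted p of 0.0674 (edgeR) and was the single gene of the list called without GalNAc-siNC mouse 1. Hccs shares 25.9% of its gene model with Arhgap6 on the opposite strand.

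Among 21 genes of heme, porphyrin and bilirubin transport, 7 rose and 1 fell, with a median log2 fold change of 0.069. That was 38.1% called, against 14.0% of all tested genes. All called genes of this list averaged 1000 or more normalized counts, and 25.7% of tested genes at that level were called. DESeq2 called 6 of the 21 and limma voom 8, against 1912 and 2311 of all 14046 tested genes. The largest changes among called genes were those of Tmem14c (0.33), which moves protoporphyrinogen into mitochondria, Slc25a37 (0.27), which imports iron into them, Pgrmc1 (0.25), a heme-binding protein of membranes, and Abcg2 (0.24), which exports porphyrins. The gene that fell was Pgrmc2 (-0.22, adjusted p = 0.0487, edgeR), the relative of Pgrmc1, named after its value was seen. Its call was lost in 4 of the 6 omissions of a mouse, those of GalNAc-siNC mouse 3 and of each GalNAc-siRnf10 mouse. Of these 4, Pgrmc1 stayed called in all 14 alternatives, while Tmem14c, Slc25a37 and Abcg2 were each lost on omitting 3 or more of the mice. The number of transport genes called ranged from 1 to 9 when a mouse was omitted, being 1 without each GalNAc-siRnf10 mouse, 3 without GalNAc-siNC mouse 2 and 4 without GalNAc-siNC mouse 3.

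All 5 genes that capture hemoglobin or heme from plasma were called, 4 lower and 1 higher. Over all tested genes 14.0% were called, and 25.7% of those whose normalized count averaged 1000 or more. Hp, which binds free hemoglobin, fell by 0.62 on the log2 scale, Lrp1, a receptor that takes up heme on hemopexin, fell by 0.56, Hpx, hemopexin itself, fell by 0.51, and Ambp, the precursor of a small heme-binding plasma protein, fell by 0.38. Hpx had a mean normalized count of 426970 with GalNAc-siNC and 300140 with GalNAc-siRnf10 (adjusted p = 4.51e-06, edgeR). Cd163, the macrophage receptor for hemoglobin bound to haptoglobin, stood at 0.37 (adjusted p = 0.0380, edgeR) and is named after its value was seen. Its call was lost on omitting any mouse other than GalNAc-siNC mouse 1, 5 of the 6 omissions, whereas the 4 lower calls were made in all of them.

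**Figure D4:**
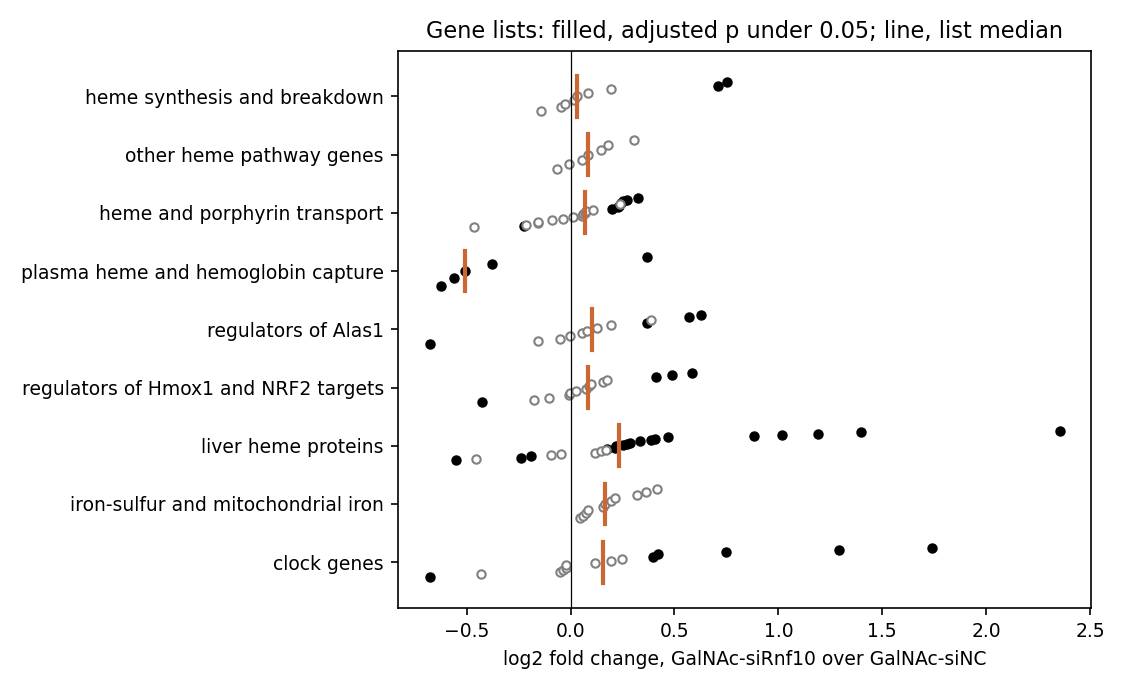
Log2 fold change of GalNAc-siRnf10 over GalNAc-siNC (horizontal axis) of the tested genes in each list, with filled points at an adjusted p under 0.05 and a line at the list's median. The 9 heme genes centre on 0.03 with Alas1 and Blvrb apart, plasma capture genes lie mostly to the left and liver heme proteins mostly to the right.

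Of 24 genes for liver proteins that carry heme, 15 rose and 3 fell, with a median log2 fold change of 0.24. Those that fell were Cyp51 (-0.55), Fads1 (-0.24) and Cyp7b1 (-0.19), named after their values were seen. The called genes that changed most were Cyp2b10 (2.35), Cyp2a5 (1.40), Cyp3a11 (1.19), which metabolize drugs and other foreign compounds, and Cyp7a1 (1.02), the rate-limiting enzyme of bile acid synthesis. Cyp3a11 rose from 29535 to 67373 mean normalized counts (adjusted p = 4.15e-10, edgeR), whereas Cyp2b10 was low, at 15.2 and 77.8. As a background for the many abundant genes of this list, 25.7% of the 3512 tested genes whose normalized count averaged 1000 or more were called. Omitting a mouse left 13 to 20 of the 24 called.

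Of 13 regulators of Alas1, 12 were tested, 3 rose and 1 fell (33.3% called, against 14.0% of all tested genes). Nr1d1, the clock repressor REV-ERB alpha, fell by 0.68 on the log2 scale (adjusted p = 1.78e-05, edgeR). Nr1i3 (0.63) and Nr1i2 (0.37), the nuclear receptors CAR and PXR that sense foreign compounds, and Foxo1 (0.57), a transcription factor held down by insulin, rose. Ppargc1a, the coactivator of Alas1 in fasting, stood at 0.13 (adjusted p = 0.615, edgeR) and Nrf1, which encodes the factor of the motif in the Alas1 window, at -0.0020 (adjusted p = 0.993, edgeR). They are named after their values were seen. The count of called regulators was 4 to 6 when a mouse was omitted.

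The level of Alas1 in liver is known to follow the time of day, and 6 of 14 tested clock genes (42.9%) were called, against 14.0% of all tested genes. Per1 (1.74), Ciart (1.29) and Cry1 (0.75) rose most, and Nr1d1 fell. The part of clock genes in the rise of Alas1 was not tested. The hour at which each liver was taken, and whether the mice had been fasted, are not given in the sources used here.

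For Hmox1 and Blvrb the list of regulators and NRF2 target genes was read. Of 14 tested genes 3 rose and 1 fell (28.6% called, against 14.0% of all tested genes). The count of 4 ranged from 2 to 5 when a mouse was omitted, being 2 without GalNAc-siNC mouse 3 or GalNAc-siRnf10 mouse 2. Ftl1, the ferritin light chain that stores iron (0.59), Nqo1, a quinone reductase (0.49), and Gclc, the rate-limiting enzyme of glutathione synthesis (0.41), rose, and Mafk, a small partner of NRF2 and BACH1, fell by 0.42. The calls of Nqo1 and Mafk were lost in 5 and 2 of 14 alternatives. Bach1, the heme-sensing repressor of Hmox1 (-0.18, adjusted p = 0.159, edgeR), and Nfe2l2, which encodes NRF2 (-0.0028, adjusted p = 0.986, edgeR), did not pass the threshold and are named after their values were seen. Of 12 genes of iron-sulfur clusters and mitochondrial iron, 11 were tested and none was called by edgeR, against 14.0% of all tested genes. In the edgeR test 4 of the 11 had an unadjusted p under 0.05, against 3754 of all 14046 tested genes. DESeq2 called 1 of the 11 and limma voom 3, against 1912 and 2311 of all 14046 tested genes. Whether this list differs from all tested genes was not tested. The log2 fold changes of the 11 lay between 0.047 and 0.41.

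In whole liver, fewer cells of a type and less RNA per cell cannot be told apart, so marker genes of the cells that could contribute heme genes were summed. Markers of hepatocytes were abundant in every library, and their sum, dominated by albumin, was 1544800 to 1640300 normalized counts with GalNAc-siNC and 2357900 to 2437700 with GalNAc-siRnf10. Of the 8 hepatocyte markers 5 rose (62.5%, against 14.0% of all tested genes called), and 3 to 6 were called when a mouse was omitted, 3 without GalNAc-siNC mouse 2. All 8 averaged 1000 or more normalized counts, and 25.7% of such genes were called. Asgr1 (0.11), Asgr2 (-0.12) and Apoa1 (0.084) did not pass the threshold. The summed level was higher in the same mice as Alas1 and Blvrb, and its part in those rises was not tested.

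Erythroid markers, which matter for Alas2 and Blvrb, summed to 7789 to 10036 with GalNAc-siNC and 8833 to 9746 with GalNAc-siRnf10. Of the 7 tested, 0 were called by edgeR, DESeq2 or limma voom, whereas edgeR called 14.0% of all tested genes. In the edgeR test 0 of the 7 had an unadjusted p under 0.05, against 3754 of all 14046 tested genes. Whether these markers differ from all tested genes was not tested. Alas2 made up a large part of the erythroid sum, beside 2579 and 2559 for Hbb-bs, while Slc4a1 was at 11.9 and 8.91 mean normalized counts. Kupffer cell and macrophage markers, which matter for Hmox1, summed to 6532 to 8107 with GalNAc-siNC and 7510 to 7770 with GalNAc-siRnf10. Of these 12 markers 1 was called, Cd163 (8.33%, against 14.0% of all tested genes). Omitting a mouse left 0 to 2 of the 12 called. In both lists GalNAc-siNC mouse 1 had the lowest sum. It also had the lowest value of its group in 7 of the 9 heme genes, Hmox1 and Blvrb among them, and the highest Alas2. The part of these cells in those values was not tested. No marker of any list was at 0 in all libraries.

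Neutrophil and monocyte markers were low, summing to 149 to 199 with GalNAc-siNC and 96.1 to 110 with GalNAc-siRnf10, without overlap. Of the 5 tested, S100a9 was called (-1.43), a call lost on omitting any mouse other than GalNAc-siNC mouse 1. The sums of cholangiocyte markers (1876 to 1951 against 1037 to 1060, led by Spp1), stellate cell markers (2389 to 2526 against 2994 to 3147) and sinusoidal endothelial markers (2088 to 2145 against 2246 to 2390) did not overlap between groups, and 1 of 4, 3 of 5 and 2 of 6 of their genes were called, against 14.0% of all tested genes. The cholangiocyte sum was nearly all Spp1 (means of 1836 and 982), beside Krt19 (28.1 and 24.3), Krt7 (27.6 and 22.7) and Epcam (23.2 and 20.9), which were not called. The called stellate and endothelial genes were higher. Stab2 (-0.26) went against the endothelial sum, and Lrat (-0.27) and Des (-0.20) against the stellate sum, none of them called. They are named after their values were seen. Omitting a mouse left 1 cholangiocyte, 1 to 3 stellate cell and 1 to 3 endothelial genes called. The stellate count was 1 without GalNAc-siRnf10 mouse 1, and the endothelial count was 1 without GalNAc-siNC mouse 2 or any GalNAc-siRnf10 mouse and also by DESeq2.

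**Figure D5:**
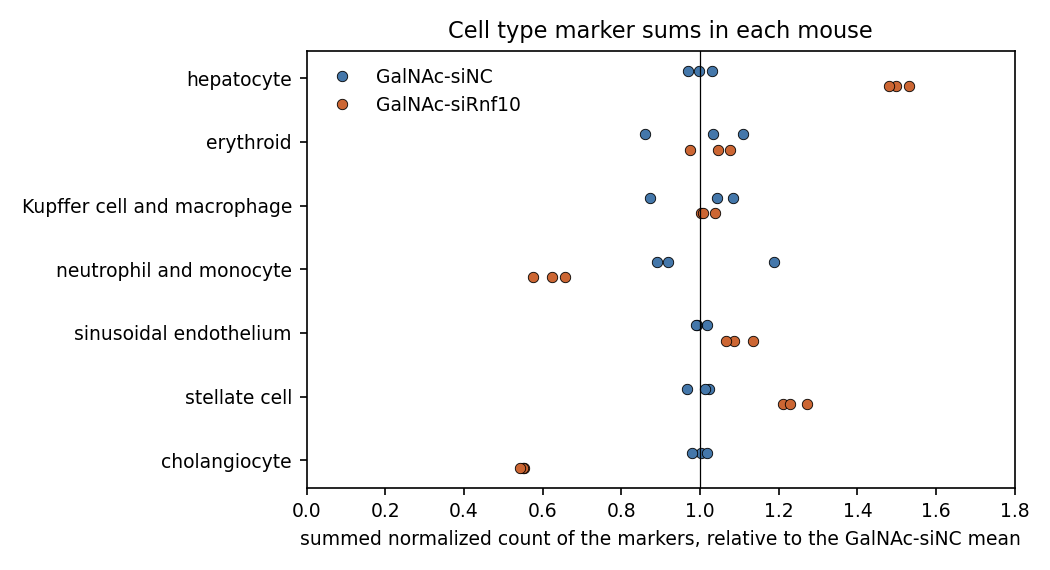
Summed normalized count of each cell type's markers in each mouse relative to the mean of GalNAc-siNC (horizontal axis, from 0), for GalNAc-siNC (blue) and GalNAc-siRnf10 (orange). Erythroid and Kupffer cell sums overlap between the groups, and hepatocyte sums of GalNAc-siRnf10 mice lie near 1.5 times the control mean.

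The genes most like Alas1 in pattern over the 6 libraries were Got1, Ahcy and Slc37a4, with Pearson correlations of log2 normalized counts of 1.00, 1.00 and 0.999 among the 9733 genes whose normalized count averaged 100 or more. Got1, an aspartate aminotransferase, had a log2 fold change of 1.22, Ahcy, which splits S-adenosylhomocysteine, one of 0.37, and Slc37a4, the glucose-6-phosphate transporter, one of 0.52. Hmox1 was most alike to Mylip (0.995), Pltp (0.990) and Gm10177 (0.981), whose log2 fold changes were between 0.023 and 0.077. The points share libraries and depth, and a difference between groups alone gives a high correlation with Alas1, so these are descriptions.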

How the data were processed

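Liver RNA-seq of 6 male mice was analysed, 3 per treatment, all with the same batch label. Per the labels and methods, mRNA libraries were made with a stranded kit, and the authors aligned their paired reads with HISAT2 (GRCm38) and tested with DESeq2. They deposited raw counts per Ensembl gene, not normalized. The counting tool, annotation release and strand setting are not given in the sources used here. The deposited table also gives gene model lengths.

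Symbols came from GENCODE M21 (GRCm38). Of the listed symbols, Ahsp was not matched and is not analysed here. Genes were tested with edgeR 4.0.16 in R 4.3.3 (filterByExpr, TMM, robust quasi-likelihood F-test, Benjamini-Hochberg over 14046 genes, threshold 0.05). The biological coefficient of variation was 9.28%. Normalized counts are counts divided by the TMM-scaled library size and multiplied by its mean. Standard errors are the log2 fold change divided by the root of F. Exact permutation tests used scipy 1.17.1, and figures matplotlib 3.10.9. The fit was tested on simulated data.

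Alternatives were RLE and upper quartile normalization, no filter or 10 counts in every library, DESeq2 1.42.0, limma 3.58.1 voom with sample quality weights, a replicate block, library size without the 20 most abundant genes, levels without length correction, and leaving out each mouse. The heme genes and lists were chosen with earlier results of these data known. In the lists, named genes are Rnf10, the 9 heme genes, 7 other pathway genes, up to 4 called genes per list with the largest absolute log2 fold change, and the 3 genes most like Alas1 and Hmox1. Of marker lists, sums were given. Another pathway gene is not reported here.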

Additional observations from a re-analysis of the deposited data

How the results depend on the processing

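The number of genes called was 1965 in all and ranged from 1053 to 2864 when a mouse was left out, the lowest without GalNAc-siRnf10 mouse 1 and the highest without GalNAc-siNC mouse 1. Of the heme genes 2 were called under 13 of 14 alternatives and 3 without GalNAc-siNC mouse 1, and of the genes in the other lists, markers apart, 44 were called and 30 to 52 with a mouse left out. Alas1 and Blvrb kept their direction and stayed past the threshold in all 14 alternatives. Values near 0 changed sign with a mouse left out, Alad lying between -0.044 and 0.075, Ppox between -0.14 and 0.071, Fech between -0.052 and 0.015, Hmox1 between -0.096 and 0.14, Cox15 between -0.14 and 0.025 and Hmox2 between -0.086 and 0.062. With limma voom and sample quality weights, which were not run apart, Hmox1 was at -0.040. The causes were not tested.

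Mice with the same number are different animals, and the correlation of their deviations from the group means was -0.0026, 0.023 and -0.033, so the numbers do not pair them. With a replicate block 1816 genes were called, Alas1 stood at 0.75 and Blvrb at 0.73, both still past the threshold, and Nqo1 was no longer called (0.49). Without the length correction 8 of the 9 heme genes changed rank. Cyp2b10 was not tested under the filter of 10 counts in every library. Counting error was largest in Hmox1, Uros and Ppox, the heme genes with the lowest counts. For Hmox1 with GalNAc-siNC counting alone gives 5.48%, below its coefficient of variation of 16.7%.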
